A study of Mus musculus with 12 samples.

Results

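The genes described here encode the machinery that builds ribosomes, a list of 40 mouse genes taken for their roles in ribosome biogenesis. The list was chosen with earlier results of these data known, so its counts are a description and no p is given for it. Ribosomes are assembled in the nucleolus, where RNA polymerase I transcribes the precursor of the ribosomal RNAs. Small nucleolar ribonucleoproteins (snoRNPs) guide the chemical modification of that precursor, and large assemblies of processing factors cut it and fold it with ribosomal proteins into the small (40S) and large (60S) subunits. Growing and dividing cells are known for high ribosome production, and pluripotent stem cells for prominent nucleoli. Of the 40 genes, 38 had a probe that could be named through its RefSeq accession, and Nop56 and Ltv1 had none here. These 38 genes were read by 63 of the 41174 probes on each array. All 38 passed the filter on dim signal, and the probe that stands for each gene was above background on all 12 arrays, so no gene level below is a bound. They are set against 20875 genes tested, of which 15558 carried a symbol.

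RNA was compared between 3 groups of 4 one-colour Agilent arrays, which measure a gene by the brightness of Cy3-labelled RNA on its probes. The groups were mouse embryonic stem cells (mESC), cells at day 9 and cells at day 14 of a differentiation toward cardiomyocytes. The labels give 1 culture text for every sample: plates coated with crosslinked ELP (elastin-like polypeptide), a first medium that lacked LIF, a cytokine used to hold stem cells in the undifferentiated state, and then GMEM with serum replacement (KSR). No genetic change, cell sorting or stem cell line is named in the labels. They also leave unstated whether replicates came from different cultures, and the p-values then describe only the spread among these arrays, which can be technical. Each group was hybridised on a slide of its own, so effects of the slide and of the group cannot be told apart.

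The 75th percentile of signal lay between 345.9 and 386.2 in mESC, between 395.1 and 438.4 at day 9 and between 463.4 and 507.7 at day 14. Levels below are log2 signals relative to that percentile of the same array, and they are compared only within a gene, since probes differ in brightness. A gene was called at a Benjamini-Hochberg adjusted p under 0.05 in limma and a log2 fold change of 1 or more in size, which is 2-fold. The labelled cell states were checked against marker genes. Pluripotency markers were called lower than in mESC for 11 of 12 genes at both days, and all 12 cardiomyocyte markers were called higher at both days. Other cell types rose as well. Of 10 fibroblast markers, 8 were called higher and 1 lower at each day, the lower one at -4.79 and -1.21. At day 14, 7 of 8 tested visceral endoderm and liver markers and 9 of 10 macrophage markers were called higher and none lower. Markers of several cell types were thus present in the same RNA, and in bulk samples fewer cells of a type and less RNA per cell cannot be told apart.

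Ribosome biogenesis genes were lower in the differentiated cells throughout the list. At day 9, 29 of the 38 genes had fallen at least 2-fold and none had risen, while 21% of all genes tested were called lower and 20% higher, 41% in all. At day 14, 35 of 38 had fallen and none had risen, beside 24.1% of all genes called lower and 22.8% higher, 46.9% in all. The median change of the 38 genes was -1.28 at day 9 (2.44-fold lower) and -1.78 at day 14 (3.44-fold lower), against medians of -0.16 and -0.19 over all genes. Single changes ranged from -2.92 (Dkc1) to -0.27 (Nop16) at day 9 and from -3.23 to -0.54 for the same pair of genes at day 14. Without the 2-fold minimum, all 38 were lower at an adjusted p under 0.05 at both days, with highest adjusted p of 2.29e-05 and 9.09e-07 in limma. The same held for 47.1% and 48.3% of all genes.

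The arrays of each group lay close together. The SD within a group had a median of 0.06 over the 38 genes and 3 groups and was 0.31 at most, and the standard errors of the changes ran from 0.04 to 0.13. The median level over the 38 genes lay between 2.93 and 3.002 in mESC, between 1.41 and 1.55 at day 9 and between 0.84 and 0.97 at day 14. For all 38 genes the dimmest mESC array was brighter than the brightest array of either day. Groups were separated in this way, with the later group lower, in 44.9% of all genes at day 9 and 47.8% at day 14.

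**Figure D1:**
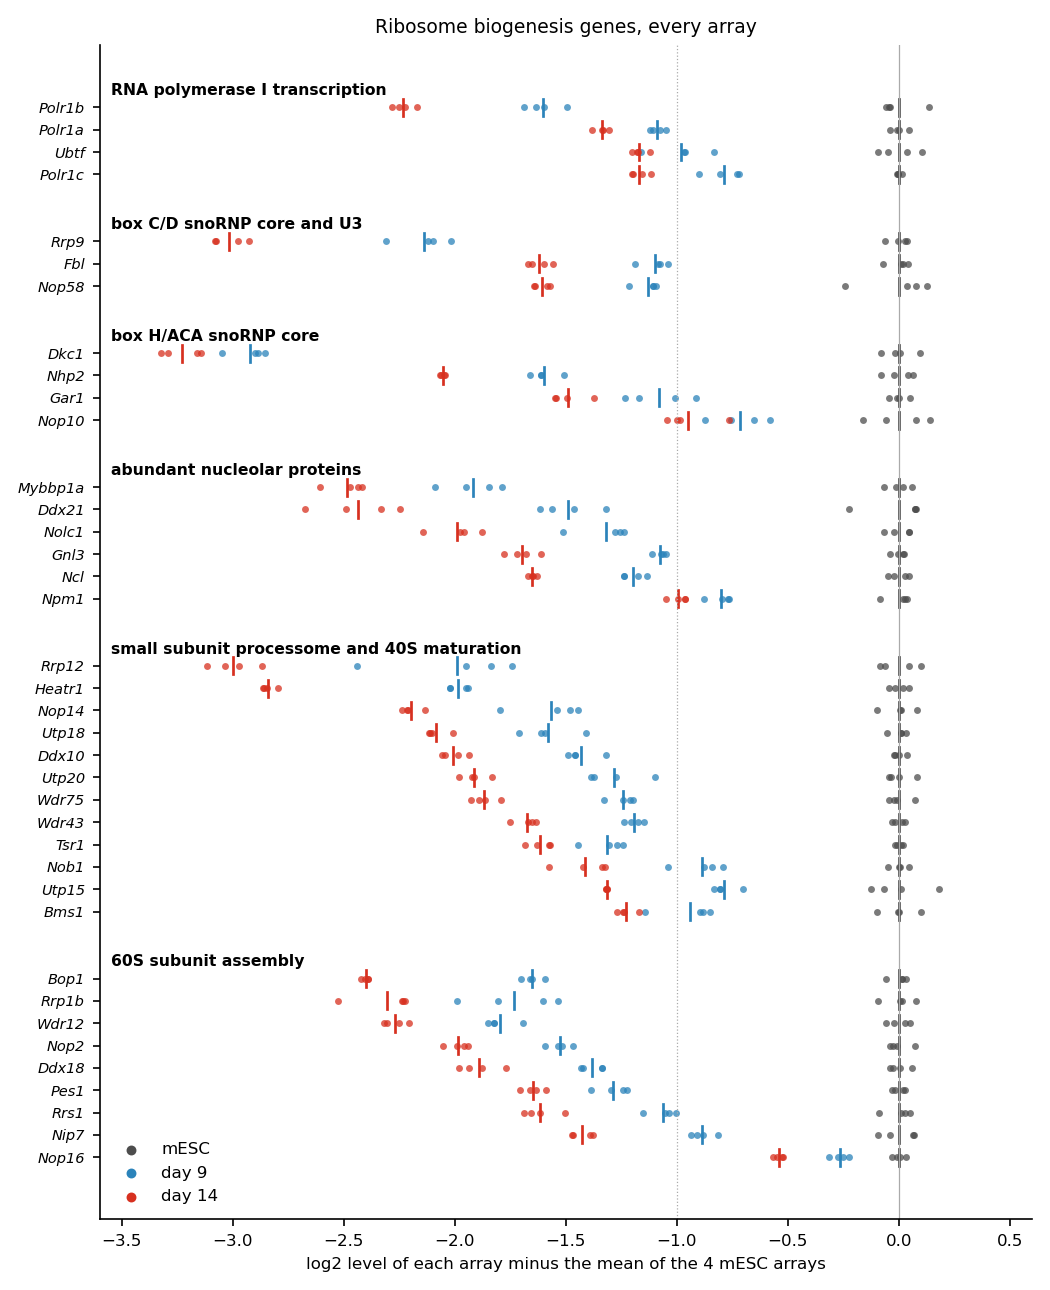
Level of the 38 ribosome biogenesis genes on each of the 12 arrays, as log2 level minus the mean of the 4 mESC arrays (points, 1 per array; short bars, group means), in 6 groups by role. The dotted line marks a 2-fold fall. All day 9 and day 14 points lie to the left of the mESC points, from Nop16 (-0.54 at day 14) to Dkc1 (-3.23).

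From day 9 to day 14 the levels were lower again by small amounts. Rrp12 alone was called lower, 1 of 38, beside 3.61% of all genes called lower, 10.2% higher and 13.8% in either direction. The median change was -0.52 (1.43-fold lower) against -0.09 over all genes, and the range was -1.01 to -0.19. All 38 genes were lower at day 14 with an adjusted p under 0.05 in limma, the highest being 0.0393, as were 37.9% of all genes. In 36 of 38 the day 14 arrays all lay below the day 9 arrays, which was the case for 34.2% of all genes, and Ubtf and Nop10 overlapped. The 2 contrasts against mESC share the mESC arrays, so their calls are not separate evidence. Set side by side, the change at day 9 was 49.1% (Nop16) to 90.5% (Dkc1) of the change at day 14, with a median of 71.3%. In all, 29 genes were called at both days, 6 at day 14 only (Polr1c, Ubtf, Utp15, Bms1, Nob1 and Nip7), and Nop10, Npm1 and Nop16 in no comparison.

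**Figure D2:**
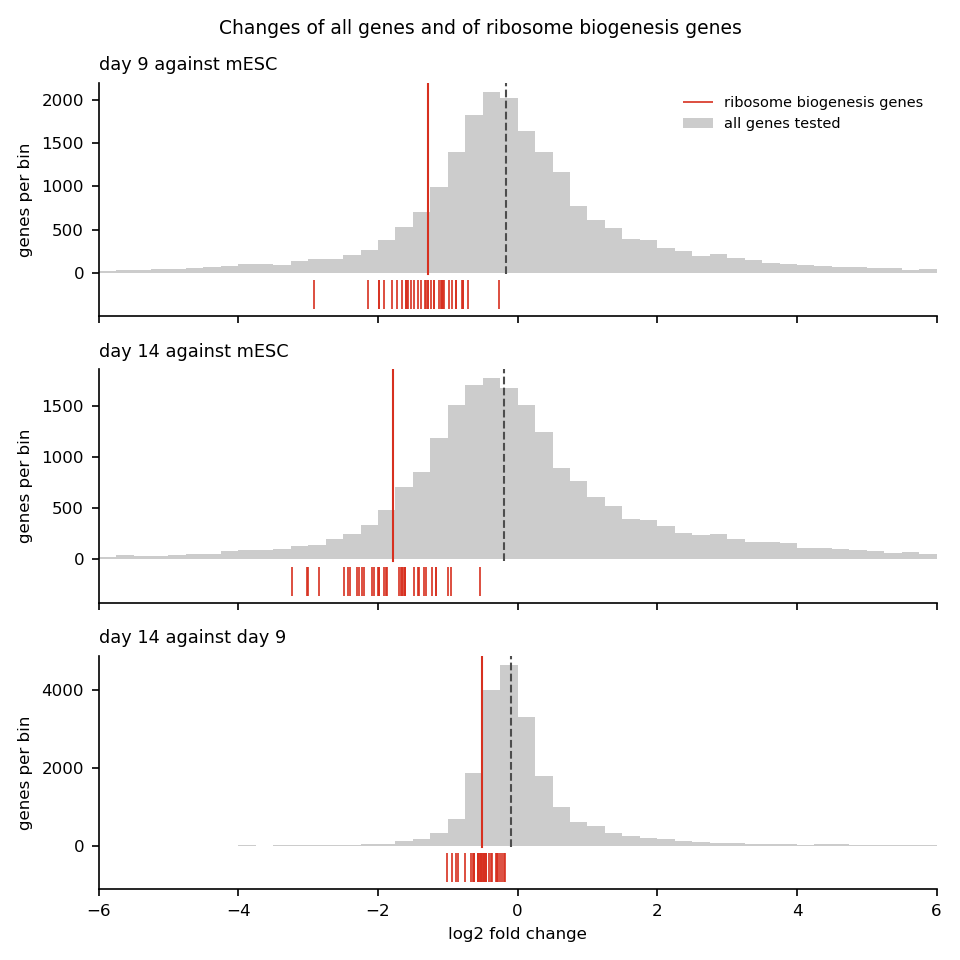
Log2 fold changes of all 20875 genes tested (grey histogram, bins of 0.25, shown from -6 to 6) and of the 38 ribosome biogenesis genes (red ticks) in the 3 comparisons. The dashed line is the median of all genes (-0.16, -0.19 and -0.09 from top to bottom) and the red line that of the 38 genes (-1.28, -1.78 and -0.52). The red ticks lie below 0 in every panel.

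Promoter sequence was set beside these values because the genes moved together. The E-box CACGTG is the site that Myc with its partner Max is known to bind. RefSeq windows of 300 bases, from 250 before to 50 after the gene start on GRCm38.p6, were given for 35 of the 40 genes. The 6 letters CACGTG, which read the same on both strands, occurred in windows of 8 of the 35 genes (22.9%), in 8.09% of all 27025 genes with a window and in 11.1% of the 12334 tested genes with one. The 8 genes are printed because they hold this motif, with the E-box in capitals and each sequence 5′ to 3′ on the strand of the gene. For Nop2, which encodes a methyltransferase of 60S assembly, the 250 bases before the start are shown (chr6:125131633-125131882, plus strand), and its E-box begins 60 bases before the start.
Nop2: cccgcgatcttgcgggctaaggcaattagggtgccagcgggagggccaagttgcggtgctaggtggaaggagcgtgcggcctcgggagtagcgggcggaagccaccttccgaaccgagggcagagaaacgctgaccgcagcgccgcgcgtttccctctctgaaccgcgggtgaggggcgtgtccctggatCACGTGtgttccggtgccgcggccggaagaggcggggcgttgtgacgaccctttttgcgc
For Utp18, a component of the small subunit processome, the same stretch is shown (chr11:93885767-93886016, minus strand), with the E-box beginning 20 bases before the start.
Utp18: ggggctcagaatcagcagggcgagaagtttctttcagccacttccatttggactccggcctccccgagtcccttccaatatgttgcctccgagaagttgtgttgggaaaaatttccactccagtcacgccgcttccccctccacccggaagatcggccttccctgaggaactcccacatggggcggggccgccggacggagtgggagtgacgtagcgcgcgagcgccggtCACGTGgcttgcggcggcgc
In the other 6 genes the E-box lay in the first 50 bases after the start, and 30 bases around it are shown. These are Ltv1 (chr10:13193092-13193121, minus), Mybbp1a (chr11:72441347-72441376, plus), Pes1 (chr11:3963965-3963994, plus), Tsr1 (chr11:74898092-74898121, plus), Utp20 (chr10:88826765-88826794, minus) and Wdr43 (chr17:71616220-71616249, plus).
Ltv1: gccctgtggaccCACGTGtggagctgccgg
Mybbp1a: aagtgactgtcttctgagccCACGTGtttg
Pes1: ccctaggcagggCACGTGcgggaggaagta
Tsr1: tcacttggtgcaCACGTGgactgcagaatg
Utp20: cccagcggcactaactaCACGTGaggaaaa
Wdr43: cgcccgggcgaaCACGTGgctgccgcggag
A match is a description of letters and not a site shown to be bound. The 7 of these genes with a probe had a median change of -1.91 at day 14, from -2.48 (Mybbp1a) to -1.62 (Tsr1). The 26 with a window but no such match had a median of -1.78, from -3.23 to -0.54, so the ranges overlapped. Promoter windows of the listed genes were richer in G and C, with a median of 59.3% against 52.7% over all windows. All windows include those of genes not tested here, and no such median was taken over tested genes alone.

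Genes of RNA polymerase I transcription came to 4, of which day 9 had 2 called lower and day 14 all 4, with median changes of -1.03 and -1.25. Under quantile normalization the counts were 1 and 2 of 4: Polr1a lost its call at day 9 (-0.85), and Polr1c (-0.74) and Ubtf (-0.88) lost theirs at day 14. Polr1b encodes the second largest subunit of the polymerase. Its level was 1.43, 1.43, 1.41 and 1.61 on the mESC arrays, -0.12, -0.02, -0.16 and -0.22 at day 9, and -0.78, -0.75, -0.70 and -0.81 at day 14. The 3 groups did not overlap, and the change at day 14 was -2.23 ± 0.06 (SE; 4 arrays a group; adjusted p = 1.04e-11). Polr1c, a subunit that RNA polymerase III shares, stood at 5.36, 5.37, 5.39 and 5.36 in mESC, 4.47, 4.56, 4.64 and 4.65 at day 9, and 4.17, 4.17, 4.21 and 4.25 at day 14. Its groups were also apart, with a change of -0.79 ± 0.05 at day 9, short of 2-fold, and -1.17 ± 0.05 at day 14 (adjusted p = 3.07e-10). Ubtf encodes UBF, the factor that keeps ribosomal RNA genes active. Its level was 3.53, 3.58, 3.66 and 3.73 in mESC, 2.79, 2.46, 2.66 and 2.65 at day 9, and 2.45, 2.50, 2.42 and 2.45 at day 14. Ubtf was lower on all differentiated arrays, but day 9 replicate 2 lay within the day 14 values. Its change was -0.98 ± 0.07 at day 9 and -1.17 ± 0.07 at day 14 (adjusted p = 1.19e-08). Polr1a, the largest subunit, fell by 1.09 and 1.34 on the log2 scale.

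All 3 tested genes of the box C/D snoRNPs, which guide 2′-O-methylation of ribosomal RNA, were called lower at both days, with medians of -1.13 and -1.62. At day 9 this count was 1 of 3 under quantile normalization, where Fbl was at -0.70 and Nop58 at -0.89, and at day 14 it stayed at 3. Rrp9 is specific to the U3 snoRNP, which directs early cuts in the precursor. Its level was 2.57, 2.64, 2.68 and 2.66 in mESC, 0.54, 0.62, 0.52 and 0.33 at day 9, and -0.44, -0.29, -0.44 and -0.34 at day 14. Every array was lower at each step, by -2.14 ± 0.06 at day 9 and -3.02 ± 0.06 at day 14, 8.09-fold (adjusted p = 2.46e-12). Nop58, a core protein of the class, stood at 4.55, 4.60, 4.64 and 4.27 in mESC, 3.42, 3.41, 3.30 and 3.41 at day 9, and 2.94, 2.87, 2.88 and 2.93 at day 14. The groups of Nop58 did not overlap although mESC replicate 4 was the lowest of its group, and the change at day 14 was -1.61 ± 0.07 (adjusted p = 1.28e-09). Fbl encodes fibrillarin, the methyltransferase itself, and changed by -1.10 at day 9 and -1.62 at day 14.

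The box H/ACA snoRNPs convert uridine to pseudouridine, and their 4 core proteins are also parts of telomerase. Here 3 of 4 genes were called lower at both days, with medians of -1.34 and -1.77. Dkc1 encodes dyskerin, the pseudouridine synthase, and had the largest change of the 38 genes against mESC. Its level was 2.19, 2.08, 2.10 and 2.01 in mESC, -0.79, -0.76, -0.80 and -0.95 at day 9, and -1.07, -1.19, -1.05 and -1.23 at day 14. Nearly all of the change was present at day 9, at -2.92 ± 0.06 (7.57-fold, adjusted p = 2.5e-12), and day 14 reached -3.23 ± 0.06 (9.38-fold, adjusted p = 1e-12). A second Dkc1 probe gave smaller falls, at -2.23 and -2.63, as shown in the plot of probes. The rank of Dkc1 at day 14 thus rests on the brighter probe. Nop10, the smallest core protein, had 4.12, 4.22, 4.42 and 4.36 in mESC, 3.41, 3.70, 3.63 and 3.52 at day 9, and 3.24, 3.28, 3.52 and 3.30 at day 14. It was lower on every differentiated array, while day 14 replicate 3 reached into the day 9 values. Its change of -0.95 ± 0.09 at day 14 (adjusted p = 9.09e-07) did not reach 2-fold. Nhp2 fell by 1.597 and 2.05 on the log2 scale, and Gar1 by 1.08 and 1.49. Under quantile normalization Gar1 was at -0.88 at day 9 and lost its call there.

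Of 6 abundant nucleolar proteins, 5 were called lower at both days, with medians of -1.26 and -1.84. Quantile normalization left 3 of them called at day 9, with Ncl at -0.80 and Gnl3 at -0.87. Mybbp1a encodes a nucleolar protein that binds the factor Myb. It stood at 2.82, 2.74, 2.79 and 2.86 in mESC, 0.85, 1.02, 0.95 and 0.71 at day 9, and 0.33, 0.38, 0.37 and 0.20 at day 14. The groups were apart, with a change of -2.48 ± 0.07 at day 14 (5.59-fold, adjusted p = 1.82e-11). Ddx21 encodes an RNA helicase of early ribosomal RNA processing. Its level was 1.54, 1.83, 1.84 and 1.84 in mESC, 0.30, 0.44, 0.15 and 0.20 at day 9, and -0.91, -0.57, -0.73 and -0.48 at day 14. It was lower after each interval, by -1.49 ± 0.11 to day 9 and by a further -0.95 ± 0.11, just short of 2-fold (adjusted p = 1.62e-05). Npm1 encodes nucleophosmin, a histone and ribosome chaperone. Its levels were 7.38, 7.39, 7.39 and 7.27 in mESC, 6.48, 6.59, 6.56 and 6.59 at day 9, and 6.39, 6.395, 6.31 and 6.36 at day 14. The mESC arrays were highest, yet the change of -0.99 ± 0.04 at day 14 (adjusted p = 1.01e-09) lay just outside the 2-fold minimum. A second Npm1 probe, at -1.23, lay inside it. Ncl (nucleolin), Nolc1 (a snoRNP scaffold) and Gnl3 (nucleostemin, a nucleolar GTPase of stem cells) changed by -1.65, -1.99 and -1.70 at day 14.

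The small subunit processome and the later 40S factors gave 12 tested genes, of which 9 were called lower at day 9 and all 12 at day 14, with medians of -1.30 and -1.89. Rrp12 has a role in the export of subunits from the nucleus. Its level was 0.80, 0.78, 0.91 and 0.96 in mESC, -1.09, -0.88, -0.97 and -1.58 at day 9, and -2.17, -2.004, -2.25 and -2.11 at day 14. Rrp12 changed by -3.00 ± 0.13 at day 14 against mESC (7.99-fold, adjusted p = 8.36e-10) and by -1.01 ± 0.13 from day 9 (adjusted p = 4.58e-05). Its day 9 arrays were the most spread of any group (SD 0.31), and the call between the days was lost at 5 of the 8 arrays when each was left out in turn. Heatr1, which links transcription by RNA polymerase I to processing, had 3.17, 3.21, 3.14 and 3.24 in mESC, 1.24, 1.25, 1.17 and 1.17 at day 9, and 0.33, 0.39, 0.35 and 0.32 at day 14. Its groups were far apart for their spread, with a change of -2.84 ± 0.04 at day 14 (7.16-fold, adjusted p = 1.05e-13). Bms1 encodes a GTPase of the processome and had the smallest change of these genes at day 14. Its level was 1.74, 1.65, 1.75 and 1.84 in mESC, 0.89, 0.85, 0.87 and 0.60 at day 9, and 0.51, 0.50, 0.57 and 0.48 at day 14. It was lower on all differentiated arrays, by -0.94 ± 0.07 at day 9, under 2-fold, and by -1.23 ± 0.07 at day 14 (adjusted p = 7.04e-09). The endonuclease gene Nob1, which makes the last cut of the 18S RNA, was at -0.89 and -1.41, and Utp15 at -0.79 and -1.32. With normexp background correction Utp15 was at -0.59 at day 14 (adjusted p = 0.0711 in limma) and lost its call. The other 7 genes (Nop14, Utp18, Ddx10, Utp20, Wdr75, Wdr43 and Tsr1) ranged from -1.58 to -1.19 at day 9 and from -2.20 to -1.62 at day 14.

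Of 9 genes of 60S assembly, 7 were called lower at day 9 and 8 at day 14, with medians of -1.38 and -1.89. Bop1, Pes1 and Wdr12 encode a complex needed for the maturation of the large subunit RNAs. Bop1 stood at 3.98, 4.06, 4.06 and 4.07 in mESC, 2.45, 2.34, 2.38 and 2.39 at day 9, and 1.64, 1.65, 1.62 and 1.65 at day 14. Its arrays agreed within a group to an SD of about 0.04, and its change was -2.40 ± 0.04 at day 14 (5.29-fold, adjusted p = 2.45e-13). Wdr12 changed by -1.80 and -2.27, and the brighter Pes1 probe by -1.29 and -1.65. Nop16, a factor bound to early 60S particles, had the smallest change of all 38 genes. Its level was 2.35, 2.39, 2.38 and 2.42 in mESC, 2.07, 2.16, 2.11 and 2.13 at day 9, and 1.86, 1.82, 1.84 and 1.86 at day 14. These groups did not overlap, but the change of -0.54 ± 0.04 at day 14 (1.45-fold, adjusted p = 3.22e-08) was small. Of the rest, Nip7 was at -0.89 and -1.43, and Rrp1b, Nop2, Ddx18 and Rrs1 lay between -1.73 and -1.06 at day 9 and between -2.31 and -1.62 at day 14. Rrs1 lost its call at day 9 under quantile normalization (-0.94) and with normexp background correction (-0.93).

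More than 1 probe was tested for 18 of the 38 genes, which gave 61 tested probes in all. Fitted over probes, 43 were called lower at day 9, 56 at day 14 and 1 between the days, beside 20.8%, 24.2% and 3.37% of all 28385 probes tested. Pes1 alone had a probe called higher, and it was singled out after its values were seen. Its brighter probe had 4.69, 4.64, 4.68 and 4.65 in mESC, 3.28, 3.44, 3.43 and 3.37 at day 9, and 3.08, 3.03, 2.96 and 3.004 at day 14. Its dimmer probe had 0.54, 0.69, 0.58 and 0.76 in mESC, 2.31, 1.82, 1.94 and 2.22 at day 9, and 1.45, 1.51, 1.41 and 1.37 at day 14. The probes thus moved in opposite directions, the dimmer one by 1.43 ± 0.10 at day 9 (adjusted p = 8.13e-08, called higher) and 0.79 ± 0.10 at day 14. Which of them reads Pes1 was not tested, and the direction for Pes1 rests on the brighter probe. The dimmer probe of Nop16 gave 0.04 ± 0.07 and -0.06 ± 0.07, so the small difference of Nop16 also rests on 1 probe. All other second probes that were tested were lower at both days, but not all by 2-fold. Of the 23 second probes, 14 were called lower at day 9 and 21 at day 14. A second Ncl probe (-0.56) and the second Nolc1 probe (-0.77) were not called at day 9, although the brightest probes of both genes were. Of the 63 probes, 4 were not above background on all arrays, and none of these stands for a gene. A Heatr1 probe (on no array) and a Utp18 probe (on 2) were not tested. A second Bms1 probe was above background on 2 of the 4 day 14 arrays. A second Utp15 probe was above it on 4 mESC, 2 day 9 and 0 day 14 arrays, so its level at day 14 is a bound, at least 2.603-fold below mESC when the dimmest signal above background on each array is taken as a floor. Without these probes, 43 and 54 were called lower at day 9 and day 14.

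**Figure D3:**
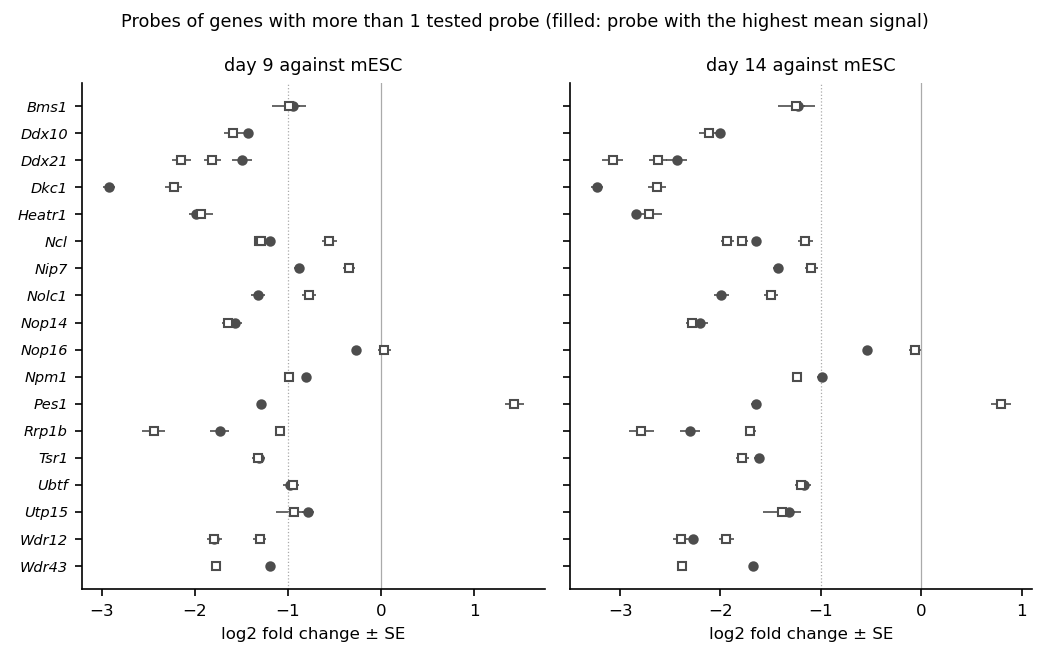
Log2 fold change ± SE of each tested probe of the 18 genes with more than 1, for day 9 (left) and day 14 (right) against mESC; filled circles are the brightest probe, which stood for the gene, and open squares the others. The dotted line marks a 2-fold fall. The open square of Pes1 lies to the right of 0 (1.43 and 0.79), and that of Nop16 near 0. The open squares of Utp15 and Bms1 at day 14 rest on 0 and 2 arrays above background.

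Other genes of the pathway, which are not in the list of 40, were lower as well. These lists were also chosen with earlier results of these data known, on the same arrays, so they are not separate evidence. Called lower at day 9 and day 14 were 6 and 7 of 9 other RNA polymerase I genes, 23 and 29 of 39 other 40S genes, and 29 and 37 of 48 other 60S genes, with none called higher, beside 21% and 24.1% of all genes called lower. With normexp correction the 9 other RNA polymerase I genes gave 3 and 5. Their medians at day 14 were -1.38, -1.52 and -1.67. Among them Tcof1, the nucleolar factor altered in Treacher Collins syndrome, changed by -2.19 at day 14, the SL1 subunit gene Taf1c by -1.86 and the polymerase subunit gene Polr1e by -1.85. Of the 40S factors, Utp14a changed by -2.59, the RNA acetyltransferase gene Nat10 by -2.37 and Utp4 by -2.19. Of the 60S factors, Mdn1, an AAA ATPase that strips factors from the particle, changed by -2.70, the GTPase gene Gtpbp4 by -2.48 and Urb1 by -2.46. Factors that assemble snoRNPs were called lower in 5 and 6 of 11 (6 and 10 with median scaling), led by Shq1 (-2.47 at day 14), a chaperone of dyskerin, Coil (-2.16) and Nufip1 (-1.91). Of 14 genes of the RNA exosome and nucleases that trim the precursor, 4 were called lower at day 9, which is 28.6% and near the 21% of all genes, and 2 under quantile normalization. At day 14 the count was 10 of 14 (71.4%), or 8 under quantile normalization, led by Exosc5 (-2.15), Xrn2 (-1.81) and Exosc9 (-1.70). Between the days none of these genes was called. Without the 2-fold minimum many of them were lower at an adjusted p under 0.05 in limma, beside 37.9% of all genes. These were 34 of the 39 other 40S genes, 46 of the 48 other 60S genes and 5 of 9 other RNA polymerase I genes. Of the snoRNP assembly factors they were 10 of 11, and of the exosome and nuclease genes 13 of 14.

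RNA of the genes for the ribosomal proteins themselves showed smaller changes than RNA of the genes that assemble the ribosome. Of 65 cytosolic ribosomal protein genes, 1 was called lower at day 9 and 5 at day 14, beside 21% and 24.1% of all genes. All 65 were below mESC at both days, as were 11728 and 11697 of all 20875 genes. The 65 genes had median changes of -0.53 and -0.65. The largest at day 14 were Rpl4 (-1.25), Rpl37 (-1.24) and Rpl18 (-1.14). These values depend on the scaling: under quantile normalization the medians were -0.08 and -0.16, with 44 and 52 of 65 below mESC and 0 called. The median of all genes under that scaling was itself -0.12 and -0.21. Relative to it the ribosomal proteins were at 0.03 and 0.05, and the 38 biogenesis genes at -0.96 and -1.34.

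**Figure D4:**
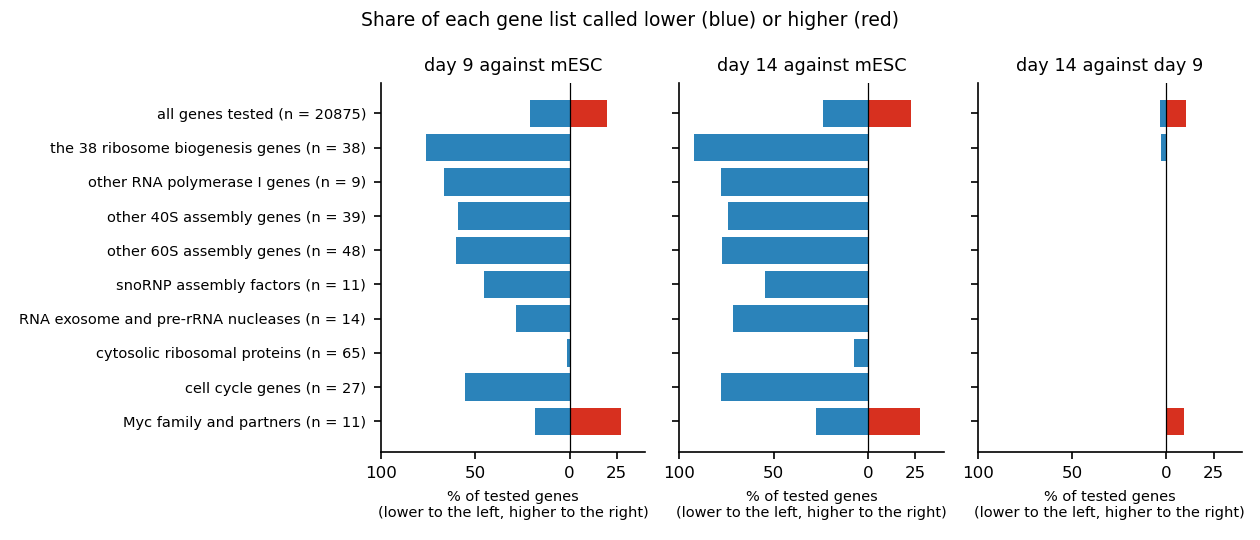
Share of the tested genes of each list called lower (blue, to the left) or higher (red, to the right) in the 3 comparisons, in percent; n is the number of genes tested. The 38 ribosome biogenesis genes reach 76.3% lower at day 9 and 92.1% at day 14, ribosomal proteins 1.54% and 7.69%, and all genes 21% and 24.1%.

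The Myc family regulates many ribosome biogenesis genes in growing cells, and its members did not move one way here. Myc itself rose, from -3.28, -3.05, -3.30 and -2.93 in mESC to 0.72, 0.94, 0.72 and 0.95 at day 9 and 0.49, 0.56, 0.53 and 0.70 at day 14. That was 3.97 ± 0.09 at day 9 (15.7-fold, adjusted p = 6.44e-12) and 3.71 ± 0.09 at day 14, opposite in direction to the 38 genes. All 3 tested Myc probes were called higher at both days, the dimmest of them by 2.10 and 1.74. Mycn, the family member known for its role in stem cells, changed by -0.86 ± 0.04 at day 9 and fell by 1.25 at day 14, and Mycl fell by 1.71 at both days. Of the Mxd proteins, which compete with Myc for the partner Max, Mxd4 rose by 2.60 at day 9 and 3.20 at day 14. Mxd3 rose by 1.90 at day 14 and was the one gene of the family called between the days (1.15 ± 0.11), a call that normexp correction and median scaling did not give. Mxd1 rose by 1.29 at day 9, and a second Mxd1 probe gave 0.49, which was not called. Mga, a repressor that pairs with Max, fell by 1.36 and 1.78. Of the 11 genes, 3 were called higher and 2 lower at day 9, and 3 higher and 3 lower at day 14. That was 27.3% higher and 18.2% lower at day 9, beside 20% and 21% of all genes. At day 14 both shares were 27.3%, beside 22.8% and 24.1%, so the split was near that of all genes. The part of the Myc family in the falls of the 38 genes was not tested.

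Genes of the cell cycle were also lower. Of 27 tested, 15 were called lower at day 9 and 21 at day 14, beside 21% and 24.1% of all genes. Their medians were -1.08 and -1.501. Largest at day 14 were the helicase subunit gene Mcm3 (-2.36), the replication factor gene Gins1 (-2.30) and the cyclin gene Ccnb1 (-2.24). Under quantile normalization 7 of the 27 were called lower at day 9 and 16 at day 14, beside 4220 and 5085 of all 20875 genes. The day 9 share was thus near that of all genes under this scaling. Summed on the linear scale, in units of the 75th percentile signal, the 38 genes came to 860 to 887 in mESC, 399 to 416 at day 9 and 305 to 310 at day 14. The cell cycle genes came to 838 to 875, 416 to 444 and 321 to 345, and the 12 pluripotency markers to 708 to 764, 59.97 to 73.5 and 56.4 to 62.6. Summed markers of other cell types did not move in 1 direction. The 12 cardiomyocyte markers summed to 5.57 to 6.32, 228 to 450 and 228 to 304, the 10 fibroblast markers to 14.8 to 16.0, 253 to 446 and 553 to 609, and the 6 smooth muscle markers to 9.13 to 9.76, 119 to 137 and 99.6 to 110.02. The 8 visceral endoderm and liver markers summed to 0.711 to 0.820, 39.4 to 66.4 and 203 to 217, a higher sum at each later day. The 10 macrophage markers were lower at day 9 and higher at day 14, at 1.595 to 1.87, 0.432 to 0.544 and 19.2 to 23.8. The 7 endothelial markers were lower in sum at both days, at 7.39 to 8.71, 5.10 to 7.32 and 2.79 to 3.12, although 5 and 4 of them were called higher and 2 lower. The 7 neuronal markers were also lower in sum, at 6.80 to 7.57, 1.94 to 3.68 and 4.07 to 5.46. In mESC 4 of the fibroblast, 4 of the liver, 7 of the macrophage, 3 of the endothelial and 3 of the neuronal markers were above background on no array, and at day 9 so were 4 of the macrophage markers. The part of cell division or of cell mixture in the falls of the 38 genes was not tested.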

How the data were processed

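The authors deposited the scanner output of each array, in which the processed signal is an intensity, background-subtracted by Agilent Feature Extraction 12 per the submitters' processing notes and not scaled between arrays. Deposited flags of other kinds (0 or 1), per the file headers, mark spots well above background and outlier spots. Here control and outlier spots were left out, log2 values were reduced by the 75th percentile of each array, and spots of a probe were averaged. The deposited median signal and local background, also intensities, served only for an alternative correction. Probes were named through RefSeq accessions in a table of GRCm38.p6 (28223 named, 12951 not).

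Testing required a signal well above background on 3 or more of the 4 arrays in any group, and each gene took its brightest tested probe. Group means over all 12 arrays were fitted with limma 3.58.1 in R 4.3.3, two-sided, with Benjamini-Hochberg adjustment over 20875 genes. The fit was tested on simulated data for day 14 against mESC (20875 genes). It recovered 94 of 100 genes changed by 1.5 on the log2 scale and 98 of 100 changed by 2, with 3 false calls each time. These figures do not cover changes closer to the 2-fold minimum.

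The members and lists were chosen with earlier results of these data known, so no p is given for a list. Values of every array are printed for the largest and smallest change at day 14 of each role, the 5 largest changes of each comparison and genes never called; Ubtf was added. Alternatives were other scalings and background corrections, filters, probe rules, fits, a replicate block and each array left out. Same-numbered arrays correlated by -0.07 to 0.18 in their deviations from group means, so the numbers were not taken as pairs.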

Additional observations from a re-analysis of the deposited data

Results flagged for a closer look

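In 8 of the 114 sets of 4 arrays (38 genes in 3 groups), 1 array lay apart from the other 3 by more than Dixon's critical share of the range, which chance gives in about 1 in 20 sets. Polr1b in mESC replicate 4 was at 1.61, above the others at 1.41 to 1.43. Npm1 in the same array was at 7.27, below 7.38 to 7.39. Ddx21 in mESC replicate 1 was at 1.54, below 1.83 to 1.84. At day 9, Nop58 in replicate 3 was at 3.30 (others 3.41 to 3.42), Nolc1 in replicate 4 at 1.52 (1.75 to 1.79) and Bms1 in replicate 4 at 0.60 (0.85 to 0.89). At day 14, Utp18 in replicate 4 was at 0.10 (others -0.01 to 0.01) and Rrp1b in replicate 4 at -1.49 (-1.21 to -1.19). The gaps were small beside the changes between mESC and the later days.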

How the results depend on the processing

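All 38 genes were below mESC at both days under every alternative run, except Pes1 with the mean over its probes, at 0.0725 at day 9 (not called) and -0.43 at day 14. The count of genes that fell ranged from 22 (quantile normalization) to 33 (median scaling) at day 9 and from 33 to 37 at day 14 under the same settings, and from 29 to 30 and 35 to 36 with 1 array left out. The median change at day 9 was -1.22 with normexp correction, -1.07 with quantile normalization and -1.41 with median scaling. At day 14 it was -1.55 with quantile normalization and -2.10 with median scaling, and between the days -0.71 with median scaling. The median of all genes at day 14 moved from -0.19 to 0.10 with normexp correction and to -0.51 with median scaling, and relative to it the 38 genes were at -1.59 as reported, -1.86 with normexp, -1.34 with quantile and -1.59 with median scaling. Median scaling also moved the share of called genes that were lower from 51.4% to 63.7% at day 14 and from 26.2% to 41.1% between the days. Between the days the count of 1 gene became 0 with normexp correction, where Rrp12 was at -0.49 (adjusted p = 0.133), 4 with median scaling, 38 with no minimum change, and 0 to 2 with 1 array left out: 0 without day 9 replicate 1, 2 or 3 or day 14 replicate 1 or 3, and 2 without day 14 replicate 4. The share of promoters with a motif rose from 22.9% to 68.6% with the wider E-box CANNTG, which 74.99% of all genes hold. A replicate block left the counts at 29, 35 and 1, and each array correlated best with its own number in 5 of 12 cases. A slide block could not be fitted, since each slide holds 1 group.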

Other observations

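Other promoter motifs were counted on both strands in the same 300-base windows, as a description of letters. The letters CCGGAAG, known from ETS factors, occurred in 12 of 35 listed genes (34.3%), in 9.93% of all genes with a window and in 16.7% of tested genes. The GC box GGGCGG occurred in 26 of 35 (74.3%), against 38.2% of all genes and 63.0% of tested genes. GCATGCG, part of the NRF1 site, occurred in 3 of 35 (8.57%), against 4.01% and 6.32%. AAGATGG, part of the YY1 site, occurred in 1 of 35 (2.86%), against 7.28% and 7.74%. Of the genes outside the list of 40, C1d, an exosome cofactor, was the one exosome or nuclease gene above mESC, by 0.89 ± 0.06 at day 9 and 0.79 ± 0.06 at day 14, neither of which reached 2-fold; it was picked out after its values were seen.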
